A study of Homo sapiens with 24 samples.

Results

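The 161 expressed ZNF genes of HepG2 cells were followed over 6 treatment groups. They were selected on level: all rows whose symbol was ZNF followed by a digit and whose raw count averaged at least 50 over the 4 DMSO libraries, with 8 antisense names left out. They made up 161 of the 453 ZNF genes and of the 18915 genes in the count table, and the other 292 ZNF genes lay under the limit. The nearest genes outside were ZNF32, ZNF473 and ZNF202, each with a mean of 49.75 counts, and the nearest inside were ZNF107 with 50.0 and ZNF394 and ZNF160 with 50.5 each.

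HepG2 is an established human hepatoma line, and all 24 libraries came from this 1 line. Cells received vehicle (DMSO), 50 nM ISRIB, 20 uM nelfinavir (Nelf), 50 nM bortezomib (Btz), or bortezomib at that dose together with nelfinavir or with ISRIB, in each case for 10 h. Each group held 4 libraries, described by the submitters as biological replicates. Bortezomib inhibits the proteasome, nelfinavir is an HIV protease inhibitor that raises phosphorylated eIF2α, and ISRIB makes cells insensitive to that phosphorylation. The design asked how raising or blocking the eIF2α signal altered the response to bortezomib, and the libraries read the 3′ end of mRNA.

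ZNF is a naming prefix given mostly to proteins with C2H2 zinc fingers, small folds in which a pair of cysteines and a pair of histidines hold 1 zinc ion and adjoining residues contact DNA. Many of these proteins also carry a KRAB box, which binds TRIM28 and through it brings the SETDB1 methyltransferase and HP1 proteins to transposons and other loci. KRAB zinc finger genes lie in clusters, above all on chromosome 19, and their mRNAs are generally low in level and short-lived.

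The coding bases of the KRAB A box are shown because the members were later described with and without it. The 5 stretches below are from members called higher after bortezomib, were read from GENCODE transcripts on GRCh37, and run 5′ to 3′ on the coding strand. Capitals mark the codons of the 6 positions that the search fixed.
ZNF282: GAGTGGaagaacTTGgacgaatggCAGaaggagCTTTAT
ZNF621: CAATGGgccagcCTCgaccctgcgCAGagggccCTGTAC
ZNF419: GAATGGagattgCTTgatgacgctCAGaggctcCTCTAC
ZNF37A: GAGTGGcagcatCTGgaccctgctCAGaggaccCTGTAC
ZNF234: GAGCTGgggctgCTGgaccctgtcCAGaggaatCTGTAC
They lie at chr7:148903833-148903871, chr3:40570855-40570893, chr19:58002884-58002922, chr10:38403728-38403766 and chr19:44652969-44653007, each within 1 coding exon and each 39 bases long, all on the plus strand.

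The first C2H2 finger found is shown for a pair of members called higher and for 4 called lower, with the codons of the zinc-binding cysteines and histidines in capitals.
ZNF282: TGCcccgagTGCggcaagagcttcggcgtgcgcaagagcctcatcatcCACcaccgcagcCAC
ZNF419: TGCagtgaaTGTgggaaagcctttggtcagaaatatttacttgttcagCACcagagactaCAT
ZNF217: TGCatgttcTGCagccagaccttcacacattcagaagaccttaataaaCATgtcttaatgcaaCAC
ZNF362: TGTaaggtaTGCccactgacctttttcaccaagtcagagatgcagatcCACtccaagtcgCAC
ZNF318: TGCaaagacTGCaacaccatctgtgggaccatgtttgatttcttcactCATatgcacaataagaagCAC
ZNF385B: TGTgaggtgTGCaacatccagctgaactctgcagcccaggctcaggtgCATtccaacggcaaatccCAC
The stretches lie at chr7:148921281-148921343 (plus strand), chr19:58004538-58004600 (plus), chr20:52199102-52199167 (minus), chr1:33747189-33747251 (plus), chr6:43310420-43310488 (minus) and chr2:180634309-180634377 (minus) of GRCh37. The fingers of ZNF282, ZNF419 and ZNF362 spanned 21 residues, that of ZNF217 spanned 22, and those of ZNF318 and ZNF385B spanned 23 because more residues separate their histidines.

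Of the 160 members found in the GENCODE annotation, the search pattern found a KRAB A box in at least 1 coding transcript of 71. In the other 89 it found none, and these can still be KRAB proteins, as ZNF263 is. The number of fingers ran from 0 to 36 with a median of 9, and the median was 12 in members with the box and 7 in members without. A total of 79 members had 10 or more fingers and 5 had none of this pattern. Chromosome 19 carried 57 members, or 35.6% against 7.37% of the genes tested, and 43 of the 57 had a KRAB box. ZNF280B was not classified.

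The libraries held 5154533 to 6943164 counts. Mitochondrially encoded transcripts took 21.5% ± 1.32 of the counts under DMSO (mean ± SD, n = 4), 21.9% ± 1.6 under ISRIB and 20.5% ± 1.66 under nelfinavir, against 33.8% ± 1.20, 27.2% ± 2.26 and 36.1% ± 3.13 under bortezomib alone, with nelfinavir and with ISRIB. All 10 hepatocyte genes examined (ALB, AFP, APOA1, APOA2, APOB, TTR, TF, SERPINA1, FGB and HNF4A) were detected, from 106.8 CPM for HNF4A to 3323 CPM for ALB under DMSO. Of the genes of other lineages, PTPRC, CD3E, PECAM1 and KRT5 were not among the rows, and COL1A1 and DES summed to at most 9 counts in any group. In bulk RNA, fewer cells and less RNA per cell cannot be told apart.

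Together the members took a small share of the counts. The share was 0.418% ± 0.0151 under DMSO, 0.404% ± 0.00386 under ISRIB, 0.423% ± 0.0133 under nelfinavir, 0.340% ± 0.0103 under bortezomib, 0.354% ± 0.0183 under bortezomib plus nelfinavir and 0.314% ± 0.0233 under bortezomib plus ISRIB. No library with bortezomib reached the lowest library without it: the former ran from 0.298% to 0.379% and the latter from 0.399% to 0.443%. On the scale of counts scaled to a fixed library sum (CPM) after TMM scaling, which sets most genes level between libraries, the order turned round, and the median member stood at 12.1 ± 0.515 under DMSO, 12 ± 0.16 under ISRIB and 13.1 ± 0.588 under nelfinavir but 15.1 ± 0.675, 15.4 ± 1.24 and 14.8 ± 1.14 in the 3 bortezomib groups. The mitochondrial share moved with both values, and its part in them was not tested.

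Most members were low. Their mean DMSO counts ran from 50.0 to 1227 with a median of 95.75, 83 lay under 100 and 9 reached 500. No member was at 0 in any library, and all 161 passed the filter that left 12685 genes for testing. CPM is not divided by gene length here, since the libraries read only the 3′ end of each mRNA. On this scale the 6 highest under DMSO were ZNF207 (BuGZ, a kinetochore protein) at 156 ± 8.55 (SD, n = 4), ZNF503 at 142 ± 8.43, ZNF106 at 133 ± 5.77, ZNF703 at 108 ± 14.4, ZNF24 at 96.1 ± 2.84 and ZNF326 (a subunit of the DBIRD complex, which acts in transcription and splicing) at 84.9 ± 7.14. Neighbours in that order overlapped within their SDs for ZNF207 and ZNF503, for ZNF503 and ZNF106 and for ZNF703 and ZNF24, but not for ZNF106 and ZNF703 or for ZNF24 and ZNF326.

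Because the DMSO libraries selected the members, tests were drawn from the comparisons that use none of them. The test was the quasi-likelihood test of edgeR with p-values adjusted by Benjamini-Hochberg over all 12685 genes, and a gene was called at an adjusted p under 0.05. Changes are on the log2 scale and stand with their standard error (±). Bortezomib plus ISRIB against ISRIB and bortezomib plus nelfinavir against nelfinavir ask what bortezomib changed in the presence of either compound, and these comparisons share no library.

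**Figure D1:**
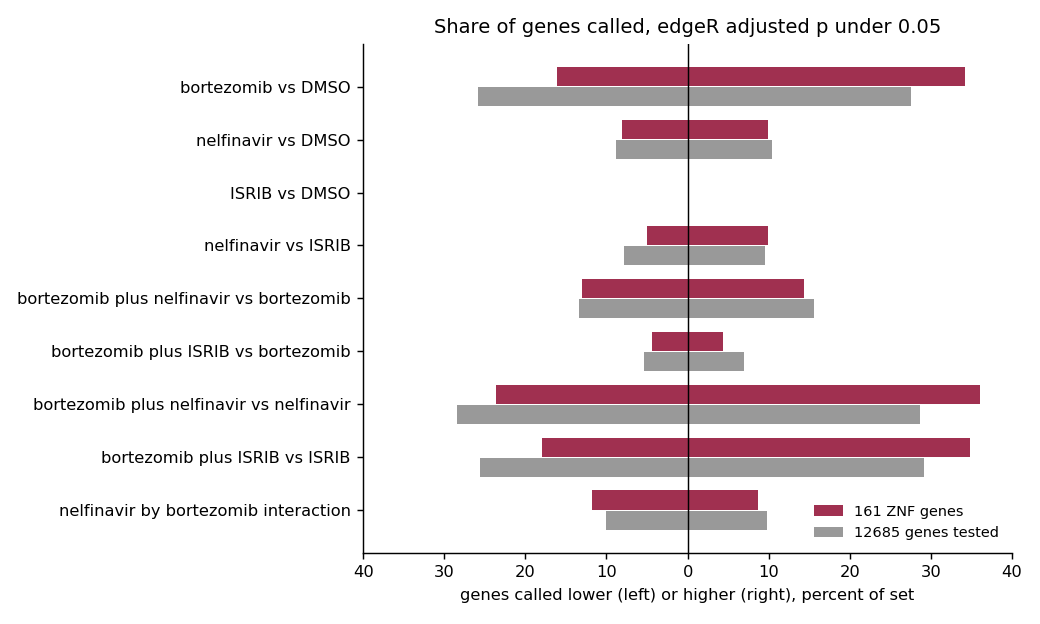
Percent of the 161 ZNF genes (red) and of the 12685 genes tested (grey) called lower, to the left of 0, and called higher, to the right, in each comparison at an adjusted p under 0.05. The grey bars include genes below the limit that selected the ZNF genes, and among genes at that limit 33%, 34.8% and 31.7% were called higher with bortezomib added to ISRIB, to nelfinavir and to DMSO, near the 34.8%, 36.0% and 34.2% of the red bars. ISRIB against DMSO has no bar.

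With ISRIB present, bortezomib raised 56 members and lowered 29, while 76 were not called. Over all genes tested, 29.1% were called higher and 25.6% lower, and the members' shares were 34.8% and 18%. Among the 8833 genes that met the same limit of 50 counts under DMSO, 33% were called higher and 30% lower, so the members' share called higher lay near that of genes at their level. Past 2-fold stood 13 members higher and 11 lower, against 11.5% and 11.7% of all genes. The median log2 fold change of the members was 0.20, against 0.02 for all genes tested and 0.03 for those at the same limit.

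With nelfinavir present, bortezomib raised 58 members and lowered 38, or 36.0% and 23.6%, against 28.7% and 28.4% of all genes and 34.8% and 31.2% of the genes at the same limit. Past 2-fold stood 20 members higher and 16 lower, against 10.5% and 14.4% of all genes. The medians were 0.16 for the members, −0.05 for all genes and 0.02 for those at the same limit.

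These splits rest on the scaling. When libraries were scaled by their totals alone, the median of all genes moved to −0.52 in the ISRIB comparison and −0.55 in the nelfinavir comparison, and the members' medians moved to −0.34 and −0.35. The calls then turned to 16 higher and 70 lower with ISRIB and to 24 higher and 75 lower with nelfinavir. Over all 12685 genes, 1532 were then called higher and 6397 lower with ISRIB, and 1584 and 6518 with nelfinavir. All 29 and all 38 members called lower by the TMM fit were also called lower on totals, whereas 16 of 56 and 24 of 58 called higher stayed higher. With nelfinavir, 1 of the 58 was called lower on totals. By the TMM fit, none of the 10 hepatocyte genes was called higher, and 7 were called lower with ISRIB and 10 with nelfinavir. On that scale 25.6% and 28.4% of all genes were called lower. The part of the hepatocyte genes in the members' counts was not tested. The direction of the members as a group is therefore given relative to the other genes of the same libraries.

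The 2 comparisons gave overlapping lists of members, and the matching overlap of calls over all genes was not counted. A total of 44 members were called higher in both, which was 78.6% of the 56 and 75.9% of the 58, and 23 were called lower in both, or 79.3% of the 29 and 60.5% of the 38. A further 2 members were called in opposite directions, and 49 were called in neither. The log2 fold change had the same sign in 124 members (77.0%), against 79.3% of all genes tested. Across the 161 members the log2 fold changes had a Pearson r of 0.728 and a Spearman rho of 0.740, against 0.719 and 0.747 across all genes tested, close to each other. These are correlations across genes, which are not independent replicates.

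With ISRIB present, 27 of the 71 members with a KRAB A box (38%) were called higher and 6 (8.45%) lower with a median of 0.33, beside 29.1% and 25.6% of all genes and 33% and 30% of genes at the same limit, whereas of the 89 without the box 28 were called higher and 23 lower with a median of −0.02. With nelfinavir present the counts were 27 higher (38%) and 12 lower (16.9%) with a median of 0.24 in the first class and 30 higher and 26 lower with a median of 0.05 in the second, beside 28.7% and 28.4% of all genes and 34.8% and 31.2% of genes at the same limit. When libraries were scaled by totals alone, the class with the box had 8 higher and 18 lower with ISRIB and 11 higher and 28 lower with nelfinavir, and its medians of −0.21 and −0.27 remained above the −0.55 and −0.46 of the class without it. On that scale 1532 of all 12685 genes were called higher and 6397 lower with ISRIB, and 1584 and 6518 with nelfinavir. The members with the box were also lower in level, with a median DMSO count of 81.75 against 113.75. Of the 57 members on chromosome 19, 18 were called higher and 7 lower with ISRIB and 20 and 11 with nelfinavir, both with a median of 0.24, and of the 103 elsewhere 37 and 22 and 37 and 27, with medians of 0.12 and 0.08. The differences between these classes were not tested, and the class without the box holds members such as ZNF263, a KRAB protein that the pattern missed.

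**Figure D2:**
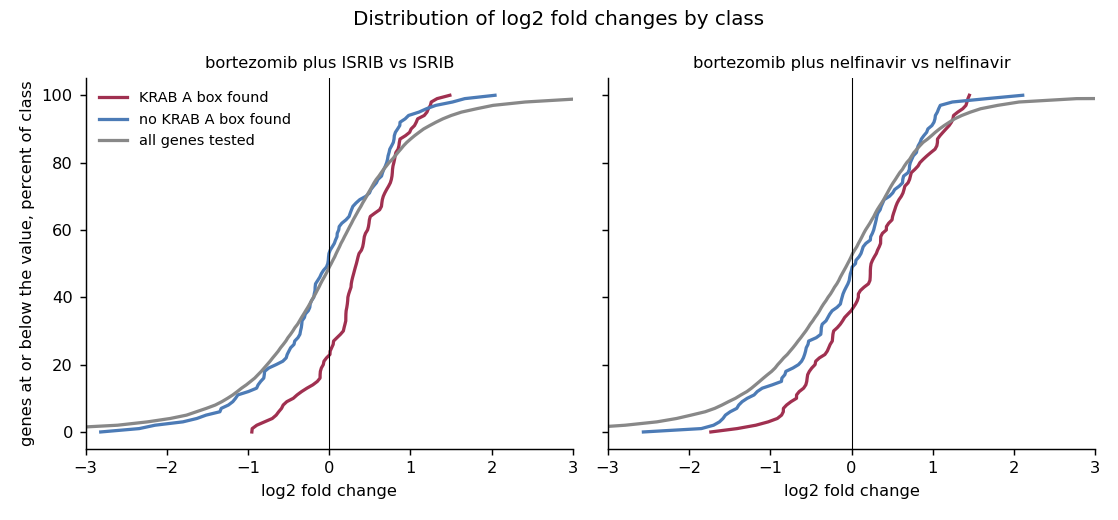
Cumulative distribution of the log2 fold change for 71 ZNF genes with a KRAB A box, 89 without and all 12685 genes tested, with bortezomib added to ISRIB (left) and to nelfinavir (right). The curve of the class with the box lies to the right of the other curves over most of its length, with medians of 0.33 and 0.24.

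Among the members that rose, ZNF165, a SCAN-containing cancer-testis antigen, had the largest fold of the members in both comparisons. Its level was 8.45, 9.84, 3.67 and 8.26 CPM in the 4 ISRIB libraries and 36.5, 37.7, 22.5 and 28.4 with bortezomib added. It was 7.88, 7.61, 7.53 and 10.00 under nelfinavir and 39.1, 56.5, 22.6 and 25 with bortezomib added. In neither pair did the groups overlap, although the treated libraries spread widely. The log2 fold changes were 2.04 ± 0.29 (adjusted p = 4.08e-07) and 2.11 ± 0.29 (adjusted p = 1.53e-07).

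ZNF282, a KRAB protein first described as a repressor that binds the long terminal repeat of a human retrovirus, rose with less spread. Its level was 28.1, 20.9, 33 and 28 CPM under ISRIB and 57.4, 62, 79.4 and 55.8 under bortezomib plus ISRIB. It was 33.4, 32.9, 32.1 and 27.4 under nelfinavir and 82, 84, 92.5 and 85.4 under both compounds. All 8 libraries with bortezomib stood above all 8 without it. The log2 fold changes were 1.21 ± 0.13 (adjusted p = 8.63e-10) and 1.45 ± 0.12 (adjusted p = 9.27e-12).

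ZNF621, another KRAB member, was at 12.6, 12.3, 16.7 and 16.6 CPM under ISRIB and 38.5, 33.5, 36.6 and 29.6 with bortezomib added, a change of 1.25 ± 0.14 (adjusted p = 2.74e-09). Under nelfinavir it was at 24.1, 20.8, 23.4 and 19.1 and with bortezomib added at 40.8, 47, 52.3 and 55.6, a change of 1.16 ± 0.13 (adjusted p = 3.92e-09). Each pair of groups was fully apart.

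ZNF263, a SCAN and KRAB protein in which the pattern used here found no A box, rose by 0.84 ± 0.14 (adjusted p = 9.26e-06) with ISRIB present and by 1.61 ± 0.14 (adjusted p = 9.32e-12) with nelfinavir present. Its level went from 14.9 ± 0.780 CPM to 26.5 ± 2.81 and from 16.8 ± 0.621 to 51.1 ± 4.96 (mean ± SD, n = 4), again without overlap. ZNF37A, a KRAB member, rose by 0.98 ± 0.12 and 1.06 ± 0.12 and ZNF581 by 0.99 ± 0.16 and 1.07 ± 0.15. ZNF587B rose by 0.80 ± 0.16 and 1.36 ± 0.15, ZNF556 by 0.82 ± 0.16 and 1.43 ± 0.16, and ZNF292 by 0.58 ± 0.12 and 1.03 ± 0.12. In each of these the groups compared did not overlap.

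Other members stood out with ISRIB present. ZNF277 rose by 1.62 ± 0.20 (adjusted p = 2.41e-08), from 12.5, 11.8, 6.64 and 9.12 CPM to 32.5, 36.4, 19.8 and 34.8. ZNF516, an activator of the UCP1 gene in brown fat, rose by 1.49 ± 0.19 (adjusted p = 5.13e-08), from 5.93, 6.56, 5.37 and 7.03 to 15.8, 14.9, 19.4 and 19.99. ZNF234 rose by 1.48 ± 0.18 and ZNF697 by 1.18 ± 0.19, and the changes of these 4 with nelfinavir present were 0.57, 0.71, 0.53 and 0.64, all called, with overlapping groups for ZNF277. ZNF746 (PARIS, a parkin substrate that represses the PGC-1α gene) rose by 1.08 ± 0.22 and 0.81 ± 0.22, with overlapping groups in the second.

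Among the members that fell, ZNF385B fell most with ISRIB present. It was at 21.6, 21.6, 23.6 and 22.4 CPM under ISRIB and 2.45, 4.19, 2.32 and 3.7 with bortezomib added. Under nelfinavir it was at 11.9, 14.3, 9.99 and 7.53 and with bortezomib added at 5.71, 4.54, 7.07 and 4.13. The highest library with bortezomib lay under the lowest without it in each pair. The log2 fold changes were -2.81 ± 0.24 (adjusted p = 5.79e-12) and -1.03 ± 0.22 (adjusted p = 0.000202), the start in nelfinavir being lower.

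ZNF362 was at 19.8, 21.8, 24.7 and 21.2 CPM under ISRIB and 3.56, 4.4, 3.79 and 6.42 with bortezomib added, a change of -2.27 ± 0.19 (adjusted p = 5.54e-12). With nelfinavir it went from 18.6, 17.6, 17.8 and 15.3 to 5.71, 4.54, 8.06 and 4.88, a change of -1.57 ± 0.18 (adjusted p = 7.27e-09). The groups were far apart. The last 500 bases of its transcript match those of another annotated gene model, so reads could be split or lost there.

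ZNF318, which controls the choice between IgM and IgD transcripts in B cells, went from 42.3, 42, 45.5 and 44.6 CPM to 15.4, 13.8, 16.2 and 10.6 with ISRIB, a change of -1.63 ± 0.16 (adjusted p = 2.22e-10). It went from 50.8, 45, 58.9 and 45.7 to 14.4, 18.8, 24.8 and 20.8 with nelfinavir, a change of -1.34 ± 0.15 (adjusted p = 4.73e-09). No library with bortezomib reached one without it.

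ZNF217, an amplified oncogene of breast and other cancers that acts with CtBP and CoREST repressor complexes, went from 31, 28.6, 34.7 and 28 CPM to 12, 11.3, 16 and 14.6, a change of -1.18 ± 0.17 (adjusted p = 3e-07). With nelfinavir it went from 27.1, 29.9, 36.2 and 31.5 to 9.3, 7.04, 11.4 and 10.9, a change of -1.68 ± 0.17 (adjusted p = 4.12e-10). ZNF512B changed by -0.81 ± 0.12 and -1.59 ± 0.12, ZNF839 by -1.12 ± 0.19 and -1.52 ± 0.20, and ZNF444 by -1.35 ± 0.19 and -1.16 ± 0.18. ZNF710 changed by -1.35 ± 0.27 and -1.42 ± 0.27, and ZNF775, at only 1.8 ± 1.24 CPM under bortezomib plus nelfinavir, by -1.63 ± 0.38 and -2.56 ± 0.39. All of these were called in both comparisons with groups that did not overlap. ZNF839 and ZNF710 each have a gene on the opposite strand over the last exon, and the counting setting for strand was not given in the sources used here.

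The 2 members of opposite sign were ZNF367 and ZNF337. ZNF367 was at 13.6, 14, 12.1 and 14.5 CPM under ISRIB and 2.89, 4.82, 2.11 and 2.72 under bortezomib plus ISRIB, but at 3.58, 2.71, 3.11 and 2.47 under nelfinavir and 5.92, 5.68, 6.88 and 7.51 under bortezomib plus nelfinavir. It fell with ISRIB present (-2.10 ± 0.27, adjusted p = 4.01e-08) and rose with nelfinavir present (1.13 ± 0.27, adjusted p = 0.000586). The mean of the combination lay above the means of nelfinavir alone and of bortezomib alone (3.75 ± 1.77 CPM, SD) and below that of ISRIB.

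ZNF337, a KRAB member with a gene on the opposite strand over its last exon, was at 21.2, 23.5, 21 and 27.2 CPM under ISRIB and 28.1, 31.8, 52.2 and 42 under bortezomib plus ISRIB. It was at 21.5, 23, 31.3 and 32.8 under nelfinavir and 11, 14.8, 16.7 and 18 under bortezomib plus nelfinavir. It rose in the first pair (0.73 ± 0.17, adjusted p = 0.000666) and fell in the second (-0.84 ± 0.18, adjusted p = 0.000249), in both without overlap.

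Nelfinavir against ISRIB, each without bortezomib, asks what nelfinavir changed by itself without using the DMSO libraries. It raised 16 members (9.94%) and lowered 8 (4.97%), against 9.58% and 7.84% of all genes. A fit of these groups alone called 26 higher and 13 lower. Over all genes that fit called 1646 higher and 1608 lower of 12063, against 1215 and 994 of 12685 in the fit of all groups. The member past 2-fold upward was ZNF419, a KRAB member, at 8.45, 7.74, 10.9 and 10.4 CPM under ISRIB and 20.3, 19.7, 20.6 and 17.3 under nelfinavir (1.06 ± 0.19, adjusted p = 8.34e-05), with all nelfinavir libraries above all ISRIB libraries. Bortezomib added to nelfinavir left ZNF419 at 21.8, 18.6, 29.3 and 26.3, a change of 0.30 ± 0.18 (adjusted p = 0.156) that was not called, whereas bortezomib added to ISRIB brought 25.6, 19.1, 26.3 and 14.3 and a change of 1.19 ± 0.20 (adjusted p = 4.25e-06).

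The members past 2-fold downward were ZNF367 at -2.18 ± 0.25 (adjusted p = 2.72e-08), ZNF385B at -1.02 ± 0.19 (adjusted p = 0.000121) and ZNF724P at -1.05 ± 0.31 (adjusted p = 0.014). The fall of ZNF724P rested on single libraries, since its adjusted p was 0.143 without ISRIB replicate 4 and 0.0518 without nelfinavir replicate 3. The count of 8 fell to 4 without ISRIB replicate 4 and to 5 without nelfinavir replicate 1 or 4. Over all genes, 994 lower calls of 12685 became 799 of 12856, 806 of 12866 and 751 of 12866 in that order.

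Adding nelfinavir to bortezomib, against bortezomib alone, raised 23 members (14.3%) and lowered 21 (13%), against 15.6% and 13.4% of all genes and 19.5% and 15.6% of genes at the same limit. A fit of these groups alone called 12 higher and 12 lower. Over all genes that fit called 1284 higher and 962 lower of 11237, against 1975 and 1694 of 12685 in the fit of all groups. The medians were −0.01 for the members and −0.02 for all genes. ZNF337 fell most, from 36.1, 43.4, 48.2 and 42.1 CPM under bortezomib to 11, 14.8, 16.7 and 18 (-1.48 ± 0.19, adjusted p = 2.06e-07), and no libraries overlapped. ZNF772 went from 12, 13.8, 6.34 and 8.86 to 4.02, 1.59, 6.09 and 3.94 (-1.37 ± 0.32, adjusted p = 0.00148) and ZNF839 from 12.6, 10.7, 11.4 and 10.6 to 3.59, 5.9, 3.73 and 6.76 (-1.17 ± 0.21, adjusted p = 6.96e-05), both without overlap.

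On the upward side ZNF556 went from 29.7, 28.9, 29.1 and 21.2 CPM to 41, 56.5, 64.6 and 60.6 (1.03 ± 0.16, adjusted p = 5.82e-06), with every combination library above every bortezomib library. ZNF16 went from 5.35, 8.73, 8.66 and 7.78 to 9.72, 14.1, 21.2 and 19.1 (1.07 ± 0.24, adjusted p = 0.00108), also without overlap. ZNF165 went from 19.5, 10.1, 23.9 and 16.2 to 39.1, 56.5, 22.6 and 25 (1.04 ± 0.28, adjusted p = 0.00504), where the groups overlapped.

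Adding ISRIB to bortezomib called the fewest members of the 5 comparisons without DMSO, 7 higher and 7 lower, or 4.35% in each direction, against 6.91% and 5.34% of all genes. None passed 2-fold. On library totals alone the split was 2 higher and 9 lower, and a fit of these groups alone gave 3 higher and 4 lower. Over all genes the totals gave 650 higher and 955 lower of 12685, and the groups alone 510 and 357 of 11317. ZNF503, a corepressor of the same small family as ZNF703, went from 68.7, 80.1, 76.7 and 73.5 CPM to 109, 99.1, 111 and 92.8 (0.46 ± 0.09, adjusted p = 0.0006) and ZNF652, a repressor that binds the CBFA2T3 corepressor, from 12, 18.2, 14.2 and 14 to 21.4, 24.7, 24.6 and 22.7 (0.67 ± 0.16, adjusted p = 0.00531). In both the groups were apart. The call of ZNF827 (0.42 ± 0.13, adjusted p = 0.0308) had overlapping groups and was lost without bortezomib replicate 1, 3 or 4 or without combination replicate 1 or 3, where the adjusted p lay between 0.0555 and 0.146.

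Downward, ZNF703, an oncogene of luminal breast cancer, went from 126, 98.5, 114 and 141 CPM to 76.4, 79.2, 97.3 and 63.7 (-0.60 ± 0.13, adjusted p = 0.00185) and ZNF770 from 125, 117, 90.8 and 111 to 87.7, 71.2, 72.2 and 77 (-0.53 ± 0.11, adjusted p = 0.00188). ZNF445, a KRAB protein that maintains genomic imprints, went from 16.7, 18.2, 19 and 16.2 to 13.1, 7.75, 9.9 and 11.4 (-0.74 ± 0.16, adjusted p = 0.00182), and nelfinavir added to bortezomib brought it to 11, 11.1, 10.8 and 9.95 (-0.71 ± 0.16, adjusted p = 0.000947). Another gene lies over the last exon of ZNF445 on the same strand. The count called higher fell to 4 without combination replicate 1, 2 or 3 and to 3 without bortezomib replicate 1 or 4. The count called lower fell to 4 without combination replicate 4. Over all genes, 876 higher calls of 12685 became 755 of 12874, 717 of 12870 and 844 of 12872 without those combination replicates. They became 729 of 12877 and 772 of 12875 without those bortezomib replicates. Lower calls of all genes went from 677 of 12685 to 554 of 12878.

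Over the 5 comparisons without DMSO, 39 members (24.2%) were called in none, 31 (19.3%) in 1, 53 (32.9%) in 2, 26 (16.1%) in 3, 12 (7.45%) in 4 and none in all 5. The shares of all genes tested were 23.3%, 19.7%, 31.5%, 16.1%, 7.52% and 1.81%, and those of genes at the same limit 14.8%, 16.3%, 35.7%, 20.7%, 10.0% and 2.49%.

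**Figure D3:**
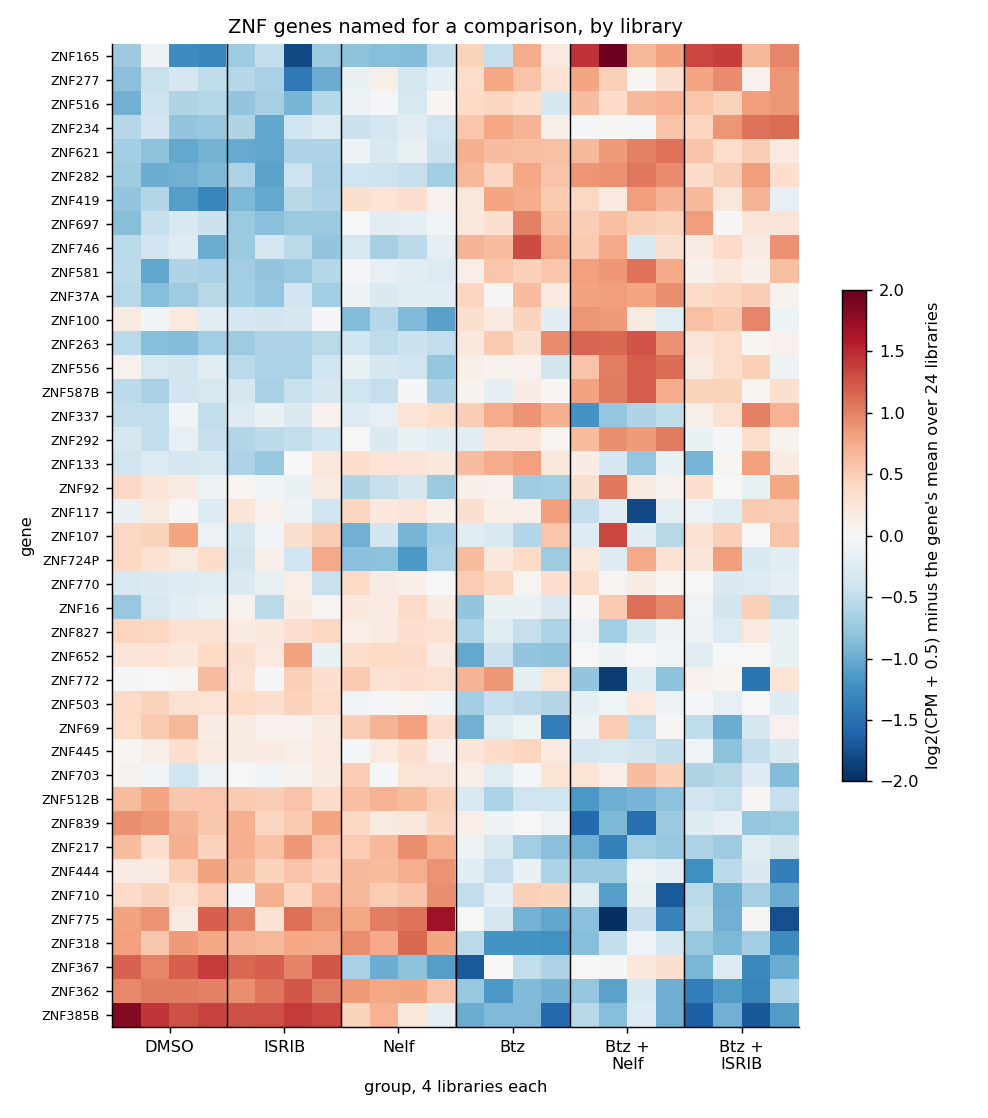
Level of the 41 ZNF genes named for a comparison in each of the 24 libraries, as log2(CPM + 0.5) minus the gene's own mean, ordered by the change with bortezomib added to ISRIB. ZNF165, ZNF277 and ZNF516 at the top are high and ZNF385B, ZNF362 and ZNF367 at the bottom low in the bortezomib plus ISRIB libraries, and no member was called between the DMSO and ISRIB columns.

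The comparisons with DMSO use the libraries that selected the members and are given as a description. Bortezomib alone against DMSO had 55 members called higher and 26 lower, beside 27.6% and 25.8% of all genes, and on library totals alone 20 higher and 68 lower, where the median of all genes moved to −0.50. On totals 1490 of all 12685 genes were called higher and 6266 lower. Nelfinavir against DMSO had 16 called higher and 13 lower, beside 10.4% and 8.84%, 25 higher in a fit of these groups alone and 10 higher without DMSO replicate 2 or 3 or nelfinavir replicate 1. That fit of the groups alone called 1925 of 12075 genes higher, against 1320 of 12685 in the fit of all groups. With those libraries left out in turn, 1013 of 12877, 1096 of 12853 and 1095 of 12866 genes were called higher. The largest values for bortezomib were -2.68 ± 0.22 for ZNF385B, -2.04 ± 0.19 for ZNF362 and -1.90 ± 0.26 for ZNF367 downward and 1.56 ± 0.19 for ZNF419, 1.51 ± 0.14 for ZNF621 and 1.51 ± 0.13 for ZNF282 upward. ZNF69, a KRAB member, was at 14.3, 15.9, 17.6 and 12.1 CPM under DMSO and 5.35, 9.11, 10.1 and 3.89 under bortezomib (-1.06 ± 0.24). For nelfinavir, ZNF419 had 1.23 ± 0.19 and ZNF367 -2.24 ± 0.25, and ZNF107, at the limit of selection, had -1.27 ± 0.35.

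ISRIB against DMSO had no member called in either direction by edgeR's quasi-likelihood test, and 0.0% of all genes. At an unadjusted p under 0.05 stood 6 members, 1 higher and 5 lower, or 3.73% against 5.54% of all genes. DESeq2 called 0 members as well, but it gave no adjusted p for 9837 of the 12685 genes, so its 0 says little. Over all genes it called 1 higher and 20 lower. The fit of these groups alone called 0 members higher and 1 lower, beside 4 higher and 76 lower of 12049 genes. The lowest adjusted p of a member was 0.334, for ZNF638 at -0.48 ± 0.13.

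The interaction asks whether nelfinavir acted differently with and without bortezomib, and since it uses the DMSO libraries it too is a description. It was called higher for 14 members and lower for 19, beside 9.74% and 10.0% of all genes. The count of 19 fell to 9 without bortezomib replicate 3 and to 11 without DMSO replicate 1 or combination replicate 2. That count also fell to 12 without combination replicate 3. Over all genes, 1269 lower calls of 12685 became 1015 of 12868, 1059 of 12863, 1040 of 12882 and 1031 of 12875 in that order. The count of 14 ran from 12 to 21 with 1 library left out. ZNF367 had the largest value, 3.02 ± 0.37, followed upward by ZNF385B (1.65 ± 0.32), ZNF92 (1.51 ± 0.35), ZNF556 (1.24 ± 0.22) and ZNF100 (1.23 ± 0.35). Downward stood ZNF337 (-1.94 ± 0.25), ZNF772 (-1.57 ± 0.42), ZNF133 (-1.53 ± 0.35), ZNF117 (-1.30 ± 0.35) and ZNF419 (-1.26 ± 0.27). ZNF92, ZNF100 and ZNF133 are KRAB members. ZNF133 was at 14.7, 13.9, 14 and 13.4 CPM under nelfinavir, 17.8, 19.4, 20.5 and 13.4 under bortezomib and 12.7, 8.86, 6.48 and 10.3 under both, so that every combination library lay below every library of either agent. ZNF100 was at 4.3, 5.42, 4.28 and 3.63, 10.5, 9.5, 11.4 and 7.13 and 15.6, 15.4, 9.43 and 6.94 in the same order.

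Some ZNF symbols belong to proteins with roles outside DNA binding. Rises and falls of listed genes, here and below, are on the TMM scale, relative to the other genes. On library totals the median of all genes moved to −0.52 with ISRIB and −0.55 with nelfinavir, so small rises rest on the scaling. Of 8 tested with RNA, ribosome or spindle roles, bortezomib raised 4 and lowered 1 with ISRIB present and raised 4 and lowered none with nelfinavir present, beside 29.1% higher and 25.6% lower of all genes in the first comparison and 28.7% and 28.4% in the second. Among genes at the limit of 50 counts the shares were 33% and 30%, then 34.8% and 31.2%. ZNF598, the ubiquitin ligase that senses collided ribosomes, rose by 0.74 ± 0.13 (adjusted p = 9.44e-06) and 0.80 ± 0.12 (adjusted p = 1.62e-06). ZNF622, a factor of 60S ribosome maturation, rose by 0.95 ± 0.16 (adjusted p = 1e-05) and 1.07 ± 0.16 (adjusted p = 8.48e-07), and ZNF207 by 0.34 ± 0.09 and 0.71 ± 0.09. ZNF593, another 60S factor, fell with ISRIB (-0.48 ± 0.15, adjusted p = 0.00616) and had 0.05 ± 0.14 (adjusted p = 0.789) with nelfinavir. ZNF638, an RNA-binding protein, rose with ISRIB present (0.70 ± 0.13) and was lower in either combination than under bortezomib alone (-0.61 ± 0.13 with nelfinavir and -0.59 ± 0.13 with ISRIB, both called). ZNF106 rose with nelfinavir present by 0.32 ± 0.10 (adjusted p = 0.00587), and ZNF326 and ZNF346 were called in neither comparison.

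Among 13 well-studied regulators, bortezomib raised 6 and lowered 5 with ISRIB present and raised 6 and lowered 3 with nelfinavir present, or 46.2% and 38.5%, then 46.2% and 23.1%, beside all-gene shares of 29.1% and 25.6%, then 28.7% and 28.4%. The shares of genes at the limit of 50 counts were 33% and 30%, then 34.8% and 31.2%. ZNF281, a regulator of pluripotency genes and of epithelial-mesenchymal transition, rose by 0.75 ± 0.11 (adjusted p = 1.08e-06) and 0.85 ± 0.11 (adjusted p = 9.18e-08). ZNF143, an activator of small nuclear RNA genes, rose by 0.65 ± 0.25 (adjusted p = 0.0299) and 0.99 ± 0.25 (adjusted p = 0.00122), and ZNF148 and ZNF609 rose by 0.39 and 0.66 with ISRIB and 0.51 and 0.29 with nelfinavir. ZNF395 fell, with changes of -1.24 ± 0.26 (adjusted p = 0.00014) and -0.81 ± 0.25 (adjusted p = 0.00754), as did ZNF217 above and ZNF219 (-0.80 and -0.37). ZNF503 and ZNF703 were called lower with ISRIB present but not with nelfinavir, with -0.50 ± 0.09 (adjusted p = 1.18e-05) and -0.61 ± 0.13 (adjusted p = 0.000164) against -0.02 ± 0.09 (adjusted p = 0.844) and 0.12 ± 0.12 (adjusted p = 0.404) in the latter, a difference that was not tested. ZNF335 rose with ISRIB (0.49 ± 0.18, adjusted p = 0.0238), ZNF24 rose with nelfinavir (0.23 ± 0.08, adjusted p = 0.0146) and ZNF146 was not called in either comparison.

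Of 5 tested genes with roles in silencing transposons, imprints or ZNF clusters, only ZNF91, which represses SVA elements, and ZNF445 are members. ZNF91 rose with ISRIB present (0.67 ± 0.19, adjusted p = 0.00414) and had 0.36 ± 0.19 (adjusted p = 0.109) with nelfinavir, and ZNF445 fell in both (-0.58 ± 0.16 and -0.55 ± 0.16). The other genes lie under the limit: ZNF274, which recruits SETDB1 to ZNF clusters, rose by 1.32 ± 0.21 (adjusted p = 2.84e-06) and 0.69 ± 0.20 (adjusted p = 0.00433), ZNF202 had 0.46 ± 0.22 (adjusted p = 0.072) and 0.45 ± 0.21 (adjusted p = 0.058), and ZNF382 fell with nelfinavir (-2.01 ± 0.74, adjusted p = 0.021).

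A further list held KRAB corepressor genes together with heterochromatin genes that are not specific to KRAB proteins. Of its 24 tested genes, bortezomib raised 7 (29.2%) and lowered 8 (33.3%) with ISRIB present, beside 29.1% and 25.6% of all genes. With nelfinavir present it raised 11 (45.8%) and lowered 5 (20.8%), beside 28.7% and 28.4%. Genes with at least 50 counts under DMSO had 33% and 30% with ISRIB and 34.8% and 31.2% with nelfinavir. TRIM28, which binds the KRAB box, had 0.07 ± 0.13 (adjusted p = 0.672) with ISRIB and rose by 0.92 ± 0.13 (adjusted p = 5.29e-07) with nelfinavir. SETDB1, which methylates histone H3 at its sites, rose in both (0.69 ± 0.14 and 0.58 ± 0.14), as did ATRX, PPHLN1, MPHOSPH8, CHD3, MORC3 (0.99 and 1.7) and KIAA1551 (1.41 and 1.5). The HP1 gene CBX5 fell in both (-1.13 ± 0.14 and -0.70 ± 0.14), as did the methyltransferase gene EHMT2 (-1.29 ± 0.17 and -1.22 ± 0.17) and CHD4, whereas CBX1, CBX3, ATF7IP and SUV39H1 were called lower with ISRIB but not with nelfinavir, a difference that was not tested. MORC2 and FAM208A fell and HDAC1 and HDAC2 rose with nelfinavir. DNMT1, the maintenance DNA methyltransferase, fell with ISRIB (-0.44 ± 0.07, adjusted p = 3.49e-06) and rose with nelfinavir (0.24 ± 0.07, adjusted p = 0.00585). Both values hold for the TMM scale. With nelfinavir the median of all genes moved from −0.05 to −0.55 on library totals, and the value of DNMT1 on that scale is not given here. Nelfinavir against ISRIB lowered 5 of the 24 (CBX1, CBX3, CBX5, SUV39H1 and DNMT1) and raised none, beside 7.84% and 9.58% of all genes.

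Genes of neighbouring families gave a frame for these counts. Of 38 genes above the same limit with the prefix ZBTB, ZKSCAN, ZSCAN or ZFP, 14 were called higher and 9 lower with ISRIB present. With nelfinavir 12 and 7 were called, and the medians were 0.04 and 0.15. The prefixes also took in ZBTB8OS, ZFP36L1 and ZFP36L2, which are not C2H2 proteins. Of 50 genes with zinc fingers of other folds (ZC3H, ZCCHC, ZDHHC, ZFAND, ZMYM and ZMYND), 18 were called higher and 10 lower with ISRIB and 17 and 16 with nelfinavir, with medians of 0.17 and 0.13, all beside 29.1% and 25.6% of all genes with ISRIB and 28.7% and 28.4% with nelfinavir. Nelfinavir added to bortezomib had 14 of the first 38 called higher and 3 lower, beside 15.6% and 13.4% of all genes, and nelfinavir against ISRIB had 10 higher and 1 lower, beside 9.58% and 7.84%. Among genes at the same limit, 33% and 30% were called with bortezomib added to ISRIB and 34.8% and 31.2% with bortezomib added to nelfinavir. The shares at that limit were 19.5% and 15.6% for nelfinavir added to bortezomib and 12% and 10.7% for nelfinavir against ISRIB. None of these differences from the members was tested.

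The members' 3′ UTRs had a median of 1811 bases in 160 members against 1295 bases over the genes tested with an annotated 3′ UTR, and 41.9% held the AU-rich run TATTTAT against 35.2%. With nelfinavir present, 54.4% of the members called higher held it, 28.9% of those called lower and 38.5% of those not called. With ISRIB present the shares were 45.5%, 41.4% and 39.5%. These are descriptions, and a longer 3′ UTR has more room for any such run.

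RefSeq promoters (250 bases before to 50 after the start, GRCh38.p14) were matched for 139 members. The CRE letters TGACGTCA stood in 6.47% of them against 3% of 11259 promoters of genes in the count table, the ATF and C/EBP composite letters TGATGNAA in 0.719% against 1.96%, and the antioxidant element letters TGACNNNGC in 15.8% against 14.6%. The heat shock pair GAANNTTC stood in 5.04% against 4.85% and the GC box GGGCGG in 66.9% against 66.1%. Both strands were searched, and a match is no evidence of binding. The promoters held a median of 23 CpG against 25.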

How the data were processed

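Total RNA from 24 HepG2 cultures was made into QuantSeq 3′ libraries. The authors trimmed reads with cutadapt 2.8, aligned them with STAR to hg19 (GRCh37) and deposited 1 table of raw counts per gene, whose counts are not normalized. How counting handled strand and molecular identifiers is not given in the sources used here. All members, classes and gene lists were chosen with earlier results of these data known. Counts were filtered in edgeR 4.0.16 (R 4.3.3; minimum count 5, minimum total 25), TMM-scaled and fitted by the quasi-likelihood test with 1 coefficient for each of 6 groups, and adjusted over 12685 genes. Alternatives were RLE factors, library totals alone, no filter, the compared groups alone, DESeq2 1.42.0, the replicate block, ISRIB-chosen members and each library left out. Standard errors are the absolute log2 fold change divided by the square root of the F statistic. The code was tested on simulated data. Depth was 5154533 to 6943164 counts a library, and the number of libraries and counts limits precision. No pair of replicates agreed within sampling noise (lowest chi-square per degree of freedom 2.14).

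Named members were the 6 highest under DMSO, in each comparison those past 2-fold with the smallest p (at most 8 a direction in the comparisons of bortezomib with no bortezomib, 5 in the others, or the top 3 called where none passed 2-fold), the 3 genes on either side of the limit, and those on the lists. KRAB boxes and fingers were found by pattern in translated GENCODE transcripts, because the protein table the design named was not used here. In 5 members (ZNF362, ZNF511, ZNF579, ZNF625 and ZNF813) the last 500 bases aligned to another gene model over 80 or more bases at 97% identity or above, and 16 members had a gene on the opposite strand and 3 a gene on the same strand over the last exon, so their counts are uncertain.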

Additional observations from a re-analysis of the deposited data

Results flagged for a closer look

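Among the named members, 13 of 270 groups of 4 libraries held 1 library apart from the other 3 by Dixon's criterion, where chance at 5% gives 13.5. The libraries that stood high were ZNF746 under bortezomib (34.0 CPM), ZNF234 under bortezomib plus nelfinavir (26.3), ZNF318 under bortezomib (18), ZNF512B under bortezomib plus ISRIB (34.5), ZNF107 under bortezomib plus nelfinavir (12.5), ZNF165 under nelfinavir (10.0), ZNF337 under DMSO (24.8), ZNF772 under DMSO (11.4), ZNF697 under bortezomib plus nelfinavir (21.6) and ZNF100 under ISRIB (8.01). The libraries that stood low were ZNF556 under bortezomib (21.2), ZNF516 under bortezomib (8.21) and ZNF697 under ISRIB (7.61).

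The effect of nelfinavir differed with and without bortezomib, by the interaction term of edgeR's quasi-likelihood test, in 10 named members past 2-fold. The DMSO libraries that enter this term also selected the members. On the log2 scale it was 3.0224 for ZNF367, 1.6545 for ZNF385B, 1.5072 for ZNF92, 1.2422 for ZNF556 and 1.2324 for ZNF100. It was −1.9383 for ZNF337, −1.5673 for ZNF772, −1.5285 for ZNF133, −1.3034 for ZNF117 and −1.2601 for ZNF419.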

How the results depend on the processing

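Under the alternatives run, none of the 79 named gene and comparison pairs changed direction. Those pairs do not take in calls of genes named only for their level or for a list. The medians of the 3 comparisons of bortezomib with no bortezomib changed sign on library totals. Over all members, 1 called higher by the TMM fit was called lower on totals for bortezomib against DMSO. The same held for 1 member for bortezomib plus nelfinavir against nelfinavir. Scaling by library totals alone gave 16 members higher and 70 lower for bortezomib plus ISRIB against ISRIB, 24 and 75 for bortezomib plus nelfinavir against nelfinavir, and 20 and 68 for bortezomib against DMSO, with medians of −0.34, −0.35 and −0.36, and 2 higher for bortezomib plus ISRIB against bortezomib. A fit of the compared groups alone gave 3 higher and 4 lower for bortezomib plus ISRIB against bortezomib, 12 and 12 for bortezomib plus nelfinavir against bortezomib, 26 and 13 for nelfinavir against ISRIB, 25 higher for nelfinavir against DMSO and 1 lower for ISRIB against DMSO. The all-gene counts for library totals, for the compared groups alone and for the libraries left out by name stand beside the members' counts in the results above. Without the expression filter, 4 were higher for bortezomib plus ISRIB against bortezomib, 11 lower for the interaction and 1 lower for ISRIB against DMSO. Over all 18915 genes the counts were then 860, 1027 and 34 in that order, against 876, 1269 and 0 of 12685 with the filter. With 1 library left out, the counts were 10 to 13 higher for nelfinavir against DMSO, 4 to 8 lower for nelfinavir against ISRIB, 3 to 6 higher and 4 to 10 lower for bortezomib plus ISRIB against bortezomib, and 9 to 16 lower for the interaction. The cause was not tested. DESeq2 and RLE factors left each count within 1.5 times. The replicate block gave 56 higher and 29 lower for bortezomib plus ISRIB against ISRIB and 58 and 37 for bortezomib plus nelfinavir against nelfinavir, and changed no call of the 79 named gene and comparison pairs. Between groups, 10 of 60 same-numbered pairs of libraries deviated together (r over 0.1), a larger share than the 7 of 180 others. The median r was 0.013 for same-numbered pairs and −0.006 for the others. In the ISRIB group the library named S10 is replicate 1 and S9 is replicate 4, whereas the other groups are numbered in the order of their S names. Whether the replicate numbers or the S names mark a shared batch was not tested. The replicate block therefore cannot settle a pairing that involves the ISRIB libraries. Members chosen on the ISRIB libraries numbered 162, of which 150 were shared. Counts of 50 to 100 for most members limit small changes.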
